A study of Mus musculus with 9 samples.

Results

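Haemoglobin transcripts were followed as a sign of red blood cells in mouse prostate RNA. The genes were Hba-a1 and Hba-a2, which encode the adult alpha chain, Hbb-bs and Hbb-bt, which encode the adult beta chain, and Alas2, the erythroid enzyme of the first step of haem synthesis. They were chosen by symbol from the deposited count table, 5 of its 54532 genes, with their levels by genotype already known from an earlier look at the same libraries. Their levels and fold changes are therefore given as a description, and the intervals and calls printed with them are not read as tests. Of these genes, 5 of 5 passed the low-count filter, which kept 16836 genes.

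Prostate tissue was profiled by polyA-enriched bulk RNA-seq at 3 genotypes of Srd5a2, whose product, a steroid reductase, makes dihydrotestosterone from testosterone. The groups were null mice (KO, Srd5a2-/-), heterozygous mice (Het, Srd5a2+/-) and wild-type mice (WT), with 3 libraries each, 9 in all. The line was kept by crossing heterozygous males with C57BL6 wild-type females, and null males came from the third generation. No label or file gives the age of the mice, the lobes taken or any perfusion of the tissue. Each library name carries its own number, but the labels do not say that the libraries of a genotype come from separate animals. Whether the spread between them is between animals or technical is therefore not known.

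Adult haemoglobin is a tetramer of paired alpha and beta chains, each with a haem group, and makes up most of the protein of a red cell. Mouse red cells lose their nucleus and keep some globin mRNA, most of it in young cells called reticulocytes. In a solid tissue such as the prostate, globin mRNA is therefore read as blood left in the vessels when the organ was taken. Bulk RNA cannot tell fewer red cells from less mRNA per red cell.

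Library totals ran from 16233392 to 24017791 counts. At equal depth, 20098 to 20380 genes had a count in KO libraries, 16845 to 17756 in Het libraries and 17877 to 20394 in WT libraries. Sbp, a ventral prostate secretion, was at 7.26 CPM (counts scaled to library size) in Het library 2, 0.994 CPM in WT library 1 and 16.0 CPM in WT library 3, whereas the other 6 had 34372 CPM or more. Probasin (Pbsn), a secretion that marks mouse prostate epithelium, stood at 2508 CPM or more in all 9. Srd5a2 itself was at 0.512 to 1.15 CPM in KO libraries, 2.37 to 5.19 in Het libraries and 2.30 to 8.81 in WT libraries.

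The 4 globin genes sit in pairs. Hba-a1 (ENSMUSG00000069919, chromosome 11, 32283511 to 32284465) and Hba-a2 (ENSMUSG00000069917, chromosome 11, 32296489 to 32297298) lie on the plus strand, 12.0 kb apart. Hbb-bt (ENSMUSG00000073940, chromosome 7, 103812524 to 103813996) and Hbb-bs (ENSMUSG00000052305, chromosome 7, 103826534 to 103828096) lie on the minus strand, 12.5 kb apart. Alas2 (ENSMUSG00000025270, chromosome X, 150547375 to 150570638) is on the plus strand. Coordinates are on GRCm38 (mm10) as deposited, and were the same in GENCODE vM21 for 5 of 5 genes. The first annotated transcript of each globin gene has 3 exons, and that of Alas2 has 11.

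Copies within a pair are hard to tell apart by reads. Over the 538 aligned bases of their main transcripts, Hba-a1 and Hba-a2 differed at 1, and 81.0% of the 75-base windows of the Hba-a2 transcript also occurred in Hba-a1 transcripts. Hbb-bs and Hbb-bt differed at 46 of 626 aligned bases, and 56.6% of the Hbb-bt windows also occurred in Hbb-bs. An alpha and a beta transcript (Hba-a1 and Hbb-bs) shared 0% of such windows. No source used here says how reads matching both copies were counted, so the split between copies is uncertain. Sums over a pair are given further below.

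The promoters are shown as background on these genes, and their part in the levels here was not tested. Each is the 250 bases before the RefSeq start on GRCm38.p6, 5′ to 3′ on the gene's strand: Hba-a1 at chr11:32283422-32283671 (plus), Hbb-bs at chr7:103827929-103828178 (minus), Hbb-bt at chr7:103813924-103814173 (minus) and Alas2 at chrX:150547167-150547416 (plus). The Hba-a2 promoter (chr11:32296242-32296491, plus) is left out because it shares an unbroken run of 247 bases with that of Hba-a1. In each case that start lies inside the longer gene span of the deposited table. Capitals mark 4 motifs on either strand. One is GATAA, whose core is read by the erythroid factor GATA1, and another is CACCC, of the kind read by erythroid KLF1. The others are the promoter element CCAAT and the letters ATATAA, which resemble a TATA box. No 2 of these matches overlapped.
Hba-a1: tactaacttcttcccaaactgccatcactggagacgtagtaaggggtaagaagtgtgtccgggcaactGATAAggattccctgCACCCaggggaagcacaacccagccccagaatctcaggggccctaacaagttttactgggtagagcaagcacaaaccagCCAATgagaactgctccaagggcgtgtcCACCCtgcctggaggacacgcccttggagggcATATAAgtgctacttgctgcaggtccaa
Hbb-bs: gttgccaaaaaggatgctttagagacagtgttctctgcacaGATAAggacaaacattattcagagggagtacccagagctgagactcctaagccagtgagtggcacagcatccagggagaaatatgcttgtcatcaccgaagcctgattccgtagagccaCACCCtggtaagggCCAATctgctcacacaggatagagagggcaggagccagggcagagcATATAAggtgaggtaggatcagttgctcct
Hbb-bt: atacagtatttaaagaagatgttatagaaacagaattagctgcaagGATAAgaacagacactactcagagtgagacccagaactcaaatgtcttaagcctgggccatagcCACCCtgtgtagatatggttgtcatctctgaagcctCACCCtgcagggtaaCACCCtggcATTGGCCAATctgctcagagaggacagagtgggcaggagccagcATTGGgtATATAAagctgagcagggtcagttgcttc
Alas2: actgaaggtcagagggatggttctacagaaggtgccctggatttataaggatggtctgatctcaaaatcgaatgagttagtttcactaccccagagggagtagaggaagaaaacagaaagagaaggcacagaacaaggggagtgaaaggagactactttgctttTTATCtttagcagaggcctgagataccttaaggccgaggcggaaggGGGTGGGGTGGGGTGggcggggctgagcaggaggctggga

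All 4 motifs were found in each of the globin promoters, and the Alas2 window held GATAA and CACCC only. In Hba-a1 the TATA-like letters began 28 bases before the start and CCAAT 88 bases before it, and in Hbb-bs 30 and 76 bases before it. Hbb-bt carried CACCC at 3 places (140, 104 and 89 bases before the start) and CCAAT at 3, and Alas2 had 3 CACCC matches side by side on the minus strand, 40, 35 and 30 bases before its start. Of the 32851 promoters in the same RefSeq table, 22.6% held GATAA, 52.0% CACCC, 33.8% CCAAT and 9.10% ATATAA, and 0.466% held all 4. These are matches of letters, not sites of binding.

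The adult alpha genes were lower in Het prostates than in either other genotype. Hba-a1 had 31.1, 38.3 and 20.7 CPM in KO libraries 1 to 3, 10.1, 7.22 and 5.13 CPM in Het libraries 1 to 3, and 30.0, 21.0 and 32.0 CPM in WT libraries 1 to 3. Each Het library lay below each KO and each WT library, while KO and WT libraries overlapped. Group means were 30.0 ± 8.86 CPM in KO, 7.47 ± 2.47 in Het and 27.7 ± 5.87 in WT (SD, n = 3 each). The log2 fold change was -1.89 (SE 0.32, 95% interval -2.60 to -1.18) in Het against WT, 2.01 (SE 0.32, 1.29 to 2.72) in KO against Het and 0.12 (SE 0.31, -0.56 to 0.80) in KO against WT.

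Hba-a2 was the alpha copy with fewer assigned counts. Its level was 4.72, 6.09 and 3.66 CPM in KO libraries, 2.70, 0.138 and 0 CPM in Het libraries, and 6.01, 4.39 and 8.66 CPM in WT libraries. The 3 Het libraries again lay lowest, but they did not resemble each other: Het library 1 held 50 reads, library 2 held 3 and library 3 held 0, which allows up to 0.166 CPM in that library at a floor of 3 counts. In Het against WT the log2 fold change was -2.75 (SE 1.20, 95% interval -5.46 to -0.03), in KO against Het 2.35 (SE 1.19, -0.34 to 5.03) and in KO against WT -0.40 (SE 1.11, -2.91 to 2.11). These intervals are the widest of the 5 genes in each comparison, and without Het library 1 the value was -6.32 in Het against WT and 5.92 in KO against Het.

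The beta genes were also lowest in Het prostates. Hbb-bs had 25.9, 30.5 and 16.1 CPM in KO libraries, 8.0, 8.37 and 1.88 CPM in Het libraries, and 35.2, 17.7 and 30.2 CPM in WT libraries. The highest Het value was below the lowest KO value, 16.1 CPM in library 3, and below the lowest WT value, 17.7 CPM in library 2. Its means were 24.2 ± 7.37 CPM in KO, 6.08 ± 3.65 in Het and 27.7 ± 9.01 in WT (SD, n = 3 each), with log2 fold changes of -2.18 (SE 0.53, 95% interval -3.37 to -1.0) in Het against WT, 1.99 (SE 0.52, 0.81 to 3.17) in KO against Het and -0.20 (SE 0.50, -1.32 to 0.93) in KO against WT.

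Hbb-bt was the beta copy with fewer assigned counts. Its level was 1.81, 3.81 and 2.51 CPM in KO libraries, 0.0541, 0.0919 and 0.607 CPM in Het libraries, and 2.98, 2.53 and 3.16 CPM in WT libraries. These stand for 33 to 67 reads in KO libraries, 1, 2 and 11 in Het libraries and 57 to 61 in WT libraries, and no Het library reached any library of the other genotypes. The log2 fold change was -3.51 (SE 0.89, 95% interval -5.49 to -1.52) in Het against WT, 3.42 (SE 0.89, 1.43 to 5.40) in KO against Het and -0.09 (SE 0.78, -1.84 to 1.65) in KO against WT. Without Het library 3 it was -5.18 in Het against WT and 5.08 in KO against Het, and on the log2(FPKM + 1) scale -1.93 and 1.82.

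Alas2 did not separate the genotypes. It had 5.82, 3.98 and 4.34 CPM in KO libraries, 6.86, 1.24 and 2.37 CPM in Het libraries, and 8.0, 3.60 and 3.32 CPM in WT libraries. Het libraries 2 and 3 were the 2 lowest of the 9, while Het library 1 was the second highest, between the KO and WT maxima. Its log2 fold change was -0.51 (SE 0.63, 95% interval -1.91 to 0.89) in Het against WT, 0.43 (SE 0.63, -0.97 to 1.84) in KO against Het and -0.08 (SE 0.62, -1.47 to 1.32) in KO against WT. Without Het library 1 it was -1.46 in Het against WT, and without the 3 libraries low in Sbp 0.36.

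**Figure D1:**
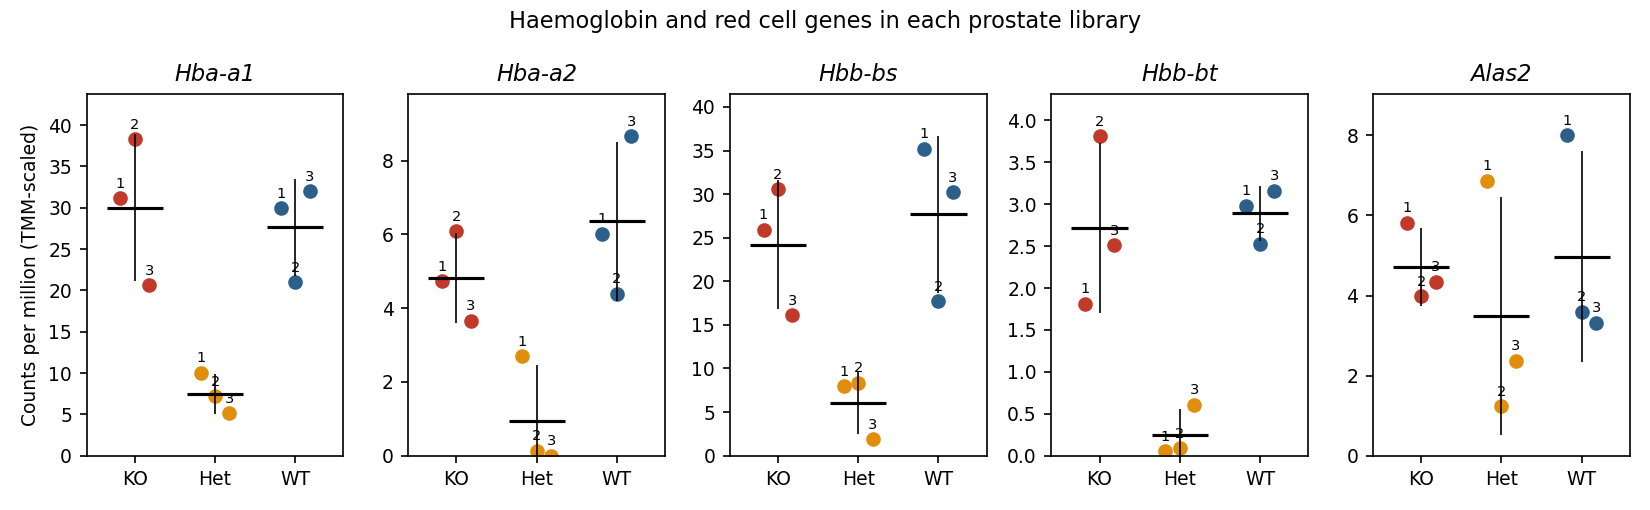
Each panel plots 1 gene, with TMM-scaled CPM on a linear axis that starts at 0 and the genotypes KO, Het and WT side by side; points are libraries labelled with their replicate number, long bars are means and thin bars 1 SD (n = 3, cut at 0). Het points lie below all others for the 4 globin genes, and Het library 1 stands at 6.86 CPM for Alas2.

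Read against all genes, edgeR called 0 of 16836 genes at an adjusted p under 0.05 in each comparison, a background of 0%, and so 0 of the 5. Counts of 0 called by edgeR for the gene lists below follow from this and say nothing about those lists. At an unadjusted p under 0.05 edgeR had 1522 genes in Het against WT, 1048 in KO against Het and 601 in KO against WT. DESeq2 called 3 of the 5 (Hba-a1, Hbb-bs and Hbb-bt) in Het against WT, where it called 1.22% of all genes, and the same 3 in KO against Het, where it called 1%. Without Het library 1, edgeR called Hba-a1 and Hba-a2 in Het against WT, with 1.47% of all genes called, and in KO against Het, with 0.103%. Every Het library lay below every WT library for 4 of the 5, as for 8.59% of all genes tested, and every KO library above every Het library for 4 of the 5, against 7.80%. In KO against WT the groups were apart for 0 of the 5, against 14.2% of all genes in either direction. Nothing is read from these counts, since the genes were picked with the same contrasts known.

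The median log2 fold change of the 5 genes was -2.18 in Het against WT, 2.01 in KO against Het and -0.09 in KO against WT, beside medians of -0.00, 0.02 and 0.01 over all genes tested. Het against WT and KO against Het share the Het libraries, so these values are not independent of each other.

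**Figure D2:**
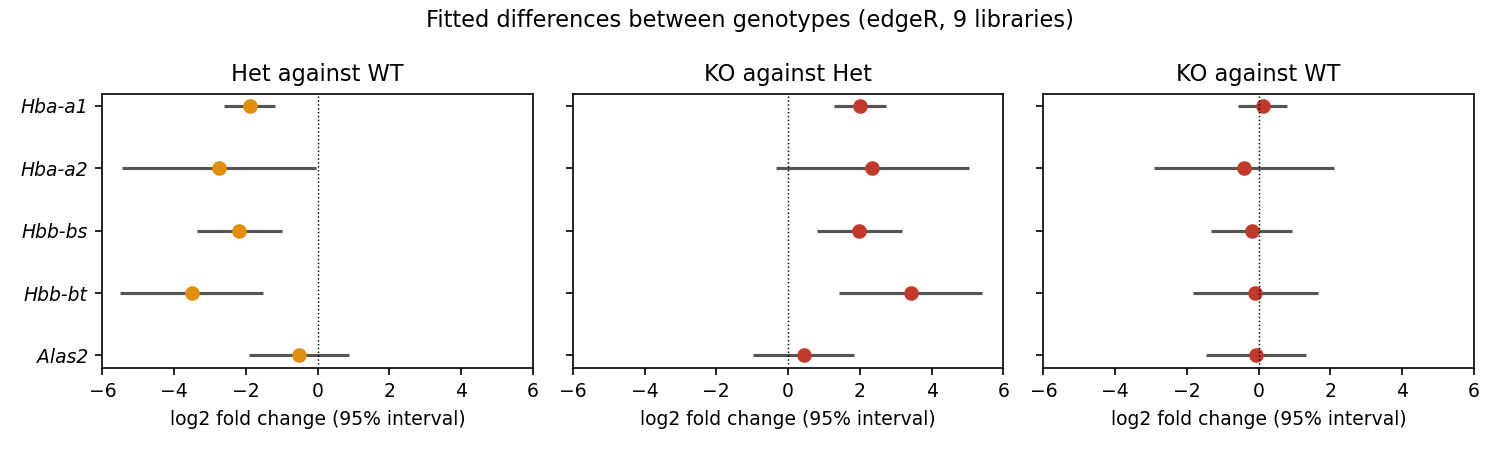
Each panel plots 1 comparison, with the edgeR log2 fold change of each gene as a point and its 95% interval as a line; the dotted line marks 0. Het against WT and KO against Het mirror each other for the 4 globin genes, while every interval in KO against WT spans 0.

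Per length and as counted, Hba-a1 and Hbb-bs stood highest of the adult globins, though the split between copies is uncertain. In FPKM (fragments per kilobase and library size, as deposited) Hba-a1 averaged 36.2 in KO, 9.18 in Het and 33.3 in WT, and Hbb-bs 30.8, 7.91 and 35.2. Hba-a2 averaged 7.07, 1.42 and 9.31 FPKM and Hbb-bt 3.78, 0.354 and 4.01 FPKM in the same 3 genotypes. Alas2 was lowest of the 5 in KO and WT, at 1.91 FPKM in KO, 1.45 in Het and 2.01 in WT.

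Summed over the 4 globin genes, the level was 63.6, 78.7 and 42.9 CPM in KO libraries, 20.8, 15.8 and 7.62 CPM in Het libraries, and 74.2, 45.6 and 74.1 CPM in WT libraries. The KO and WT ranges overlap almost fully and both lie wholly above the Het range. By pair, alpha averaged 34.9 ± 10.1 CPM in KO, 8.41 ± 3.92 in Het and 34.0 ± 7.84 in WT. Beta averaged 26.9 ± 7.90, 6.33 ± 3.34 and 30.6 ± 9.29 CPM in the same genotypes. Summing each pair before the fit gave log2 fold changes of -2.01 (SE 0.36) in Het against WT for alpha and -2.27 (SE 0.46) for beta. For alpha and beta these were 2.05 and 2.08 in KO against Het, and 0.03 and -0.19 in KO against WT.

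The ratio of alpha to beta globin counts was steady in KO and scattered in Het. It was 1.29, 1.29 and 1.31 in KO libraries, 1.58, 0.870 and 2.07 in Het libraries, and 0.942, 1.25 and 1.22 in WT libraries. Group means were 1.30 ± 0.00810 in KO, 1.51 ± 0.602 in Het and 1.14 ± 0.171 in WT (SD, n = 3 each), and the KO and WT means lay within 1 SD of the Het mean.

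The share of the lesser copies also scattered in Het. Hba-a2 made up 13.2% to 15.1% of alpha counts in KO libraries, 21.2% (95% Wilson interval 16.5 to 26.8), 1.88% (0.640 to 5.37) and 0% (0 to 3.97) in Het libraries 1 to 3, and 16.7% to 21.3% in WT libraries. Hbb-bt made up 6.53% to 13.5% of beta counts in KO libraries, 0.671% (0.119 to 3.70), 1.09% (0.299 to 3.88) and 24.4% (14.2 to 38.7) in Het libraries 1 to 3, and 7.81% to 12.5% in WT libraries. By these counts Het library 1 kept Hba-a2 and had nearly no Hbb-bt, and Het library 3 showed the reverse. How reads matching both copies of a pair were counted is not known. These intervals reflect counting error alone, because the reads carry no molecular identifiers and may repeat a molecule.

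The same Het libraries missed other genes of low level. Of the 2392 genes averaging 1 to 3 CPM, 0.125% to 0.962% had a count of 0 in KO libraries, 10.9% to 12.6% in Het libraries, and 2.26%, 1.88% and 7.53% in WT libraries 1 to 3. WT library 3, with the next most zeros, had 74.1 CPM of summed globin, about the level of WT library 1. The part of these missing genes in the globin result was not tested.

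**Figure D3:**
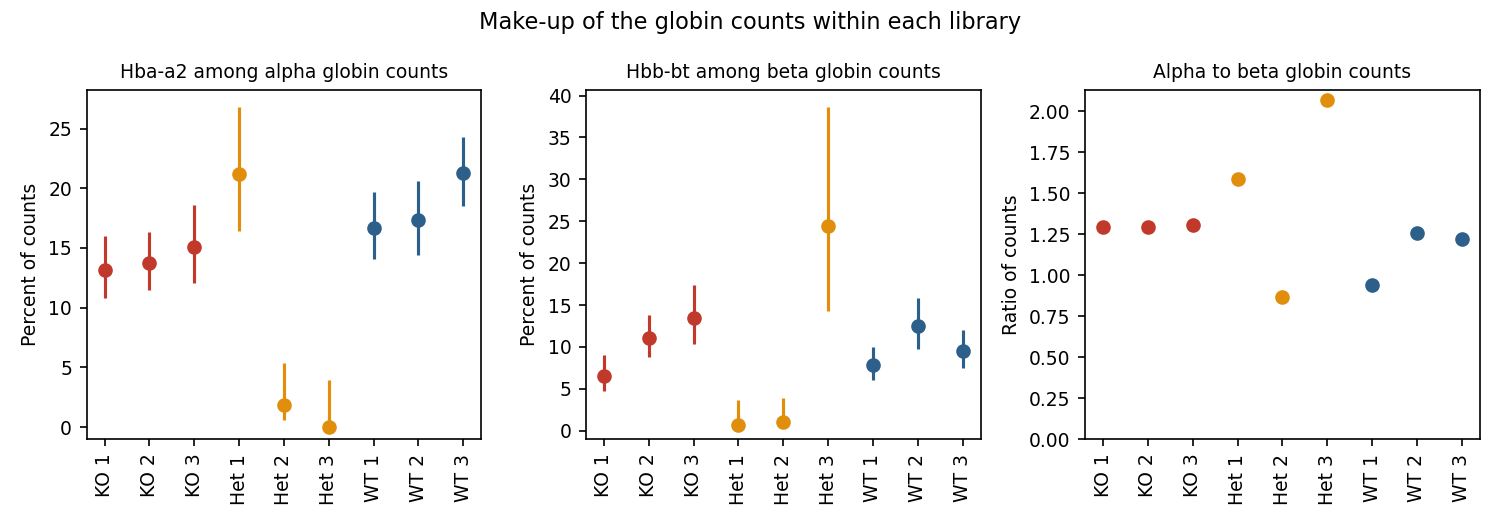
The panels plot, for each of the 9 libraries, the percent of alpha counts from Hba-a2, the percent of beta counts from Hbb-bt (lines are 95% Wilson intervals) and the ratio of alpha to beta counts. The alpha to beta ratio spans 1.29 to 1.31 in KO, 0.870 to 2.07 in Het and 0.942 to 1.25 in WT libraries.

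Alas2 relative to globin was high in 2 Het libraries. Per 100 globin counts there were 9.15, 5.06 and 10.1 Alas2 counts in KO libraries, 33.0, 7.85 and 31.2 in Het libraries 1 to 3, and 10.8, 7.88 and 4.48 in WT libraries. Het library 2 lay within the KO and WT ranges, and libraries 1 and 3 above them. Across the 9 libraries the log2 CPM of Alas2 had a Pearson r of 0.576 with the mean of the other 4, whereas Hba-a1 had 0.975, Hba-a2 0.899, Hbb-bs 0.887 and Hbb-bt 0.686 (points share library and depth).

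Several other genes that define red cells were at or near 0. Slc4a1, the band 3 anion exchanger, had 9 reads in KO library 1 and 0 elsewhere. Epb42, protein 4.2, had 7 reads in Het library 2 only, and Rhag, the Rh-associated glycoprotein, 5 reads each in KO library 3 and Het library 1. The erythroid transcription factor gene Klf1 had 20, 29 and 19 reads in KO libraries, 0, 10 and 21 in Het libraries, and 27, 16 and 35 in WT libraries. Ahsp, the alpha-haemoglobin stabilising protein, was not analysed here. None of Slc4a1, Epb42 and Rhag passed the low-count filter, which Klf1 did.

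The other globins were few. Of 11 listed embryonic and minor globin genes 3 were tested, with a median log2 fold change of -0.15 in Het against WT and 0.92 in KO against WT and 0 called by edgeR. The 8 others, Hba-x, Hbq1a, Hbq1b, Hbb-bh0, Hbb-bh1, Hbb-bh2, Hbb-bh3 and Hbb-y, had 0 reads in all libraries. Cygb (cytoglobin, made by fibroblast-like cells) had 31.0, 21.9 and 10.3 CPM in KO libraries, 9.46, 19.6 and 15.3 in Het libraries, and 11.4, 20.3 and 17.4 in WT libraries. Mb, the myoglobin of striated muscle, reached 183 CPM in KO library 2, with 0 to 18.2 CPM in the other 8. That library also had the most skeletal muscle transcripts, 6608 CPM summed over 15 genes against 144 to 1414 CPM in the other 8, and the highest globin sum. The part of muscle in its globin level was not tested.

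Of the 31 genes listed for red cell membrane and erythroid functions, 16 were tested. The median log2 fold change was 0.37 in Het against WT (10 of 16 positive) and 0.06 in KO against WT (9 of 16 positive), and edgeR called 0. Tal1, a transcription factor of blood and endothelial cells, had 7, 30 and 29 reads in KO libraries, 0 in each Het library, and 11, 9 and 34 in WT libraries, and its r with the 5 genes was 0.869. For Sptb it was 0.594. The abundant ones are also made by other cells. Bpgm, which makes 2,3-bisphosphoglycerate, had 330, 363 and 626 CPM in KO libraries, 66.1, 1472 and 464 in Het libraries, and 336, 169 and 924 in WT libraries. Epb41, protein 4.1, had 0.60 (SE 0.21) in Het against WT, opposite in sign to the globins. Car2 (carbonic anhydrase 2) had -0.77 (SE 0.36), Bnip3l (a mitophagy receptor) 0.01 (SE 0.12), Ank1 (ankyrin 1) 0.45 (SE 0.75) and Slc25a37 (mitoferrin 1) 0.29 (SE 0.49).

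Genes of the haem pathway other than Alas2 had close sums in the 3 genotypes. All 12 listed genes were tested, with a median of -0.07 in Het against WT (7 of 12 negative) and -0.14 in KO against WT (8 of 12 negative), and 0 called by edgeR. Summed, they stood at 613 to 699 CPM in KO libraries, 594 to 636 in Het libraries and 642 to 688 in WT libraries. Slc25a39, a mitochondrial carrier, had -0.20 (SE 0.15) in Het against WT, Alad, the second enzyme of the pathway, -0.21 (SE 0.20), and Ppox, its penultimate enzyme, -0.91 (SE 0.34), with Ppox at 70.6, 52.4 and 54.4 CPM in KO libraries, 60.0, 29.5 and 20.0 in Het libraries and 62.4, 69.5 and 73.9 in WT libraries. Genes of haem and haemoglobin clearance had a median of -0.18 in Het against WT and 0.08 in KO against WT, 0 of 12 called, with the ferritin genes Fth1 at -0.15 (SE 0.29) and Ftl1 at -0.22 (SE 0.17) and the haem transporter Slc48a1 at 0.31 (SE 0.15) in Het against WT.

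Markers of other blood cells differed widely in level. Of 14 platelet genes 6 were tested (median -0.53 in Het against WT, 0.06 in KO against WT, 0 called), and Gp9, Gp1bb, Clec1b and Tubb1 had 0 reads in all libraries. Alox12, the platelet 12-lipoxygenase, which epithelia also express, had 40.1, 33.6 and 24.9 CPM in KO libraries, 18.8, 23.4 and 10.7 in Het libraries, and 55.5, 34.2 and 38.9 in WT libraries. Pf4, platelet factor 4, had 143, 48 and 38 reads in KO libraries, 20, 54 and 25 in Het libraries, and 51, 102 and 64 in WT libraries. Neutrophil genes had 4 of 12 tested (median -0.06 in Het against WT and 0.33 in KO against WT, 0 called). The 9 pan-leucocyte genes had a median of -0.29 in Het against WT (7 of 9 negative) and 0.03 in KO against WT, 0 called. They summed to 524 to 671 CPM in KO libraries, 189 to 1113 in Het libraries and 359 to 993 in WT libraries. Cd52 alone had 33.5, 823 and 872 CPM in Het libraries 1 to 3. In Het against WT Cd52 had 0.43 (SE 0.99), Lcp1 0.25 (SE 0.25) and Laptm5 -0.73 (SE 0.31).

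Endothelial genes were set beside the globins as a measure of vessels. All 26 blood vessel genes were tested: the median log2 fold change was -0.71 in Het against WT (22 of 26 negative), 1.24 in KO against Het (22 of 26 positive) and 0.48 in KO against WT (23 of 26 positive), and edgeR called 0 of 26 in each. DESeq2 called 3 of 26 in Het against WT, where it called 1.22% of all genes, and 5 of 26 in KO against Het, where it called 1%. In KO against WT it called 0 of 26, and 14 of all 16836 genes. Nothing is read from these counts, since the list was chosen with earlier results known. Without WT library 3 the median in Het against WT was -0.35. In KO against WT it was 0.26 without WT library 1, 0.27 without KO library 2 and 0.74 without WT library 3. Their sum was 338, 394 and 252 CPM in KO libraries, 106, 165 and 148 CPM in Het libraries, and 183, 245 and 284 CPM in WT libraries. The Het libraries were again the lowest, with means of 328 ± 71.5 CPM in KO, 140 ± 30.2 in Het and 238 ± 50.7 in WT (SD, n = 3 each). KO and WT libraries overlapped.

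By gene, Vwf (von Willebrand factor, stored in endothelium and platelets) had 15.9, 24.5 and 8.05 CPM in KO libraries, 2.27, 5.52 and 2.59 in Het libraries, and 14.9, 15.1 and 16.0 in WT libraries. Its log2 fold change of -2.14 (SE 0.46) in Het against WT was close to that of Hbb-bs. Cd34, a sialomucin of vessels and progenitors, had -1.02 (SE 0.30), Pecam1 (CD31) -0.87 (SE 0.43) and Podxl (podocalyxin, also epithelial) -0.82 (SE 0.29). Eng (endoglin) had -0.10 (SE 0.28) and Esam, a junction protein, -0.07 (SE 0.34), so the endothelial genes were not alike. In KO against WT the same 6 had 0.08, 0.37, 0.29, 0.50, 0.59 and -0.08, and 0 of these were called by edgeR.

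The globin sum per endothelial CPM was 0.188, 0.200 and 0.171 in KO libraries, 0.196, 0.0958 and 0.0516 in Het libraries 1 to 3, and 0.405, 0.186 and 0.261 in WT libraries. Het library 1 lay within the KO range, and Het libraries 2 and 3 were the 2 lowest of the 9. The means were 0.186 ± 0.0148 in KO, 0.114 ± 0.0739 in Het and 0.284 ± 0.111 in WT (SD, n = 3 each). The KO range reached the WT range only at WT library 2, and these ratios were not tested.

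**Figure D4:**
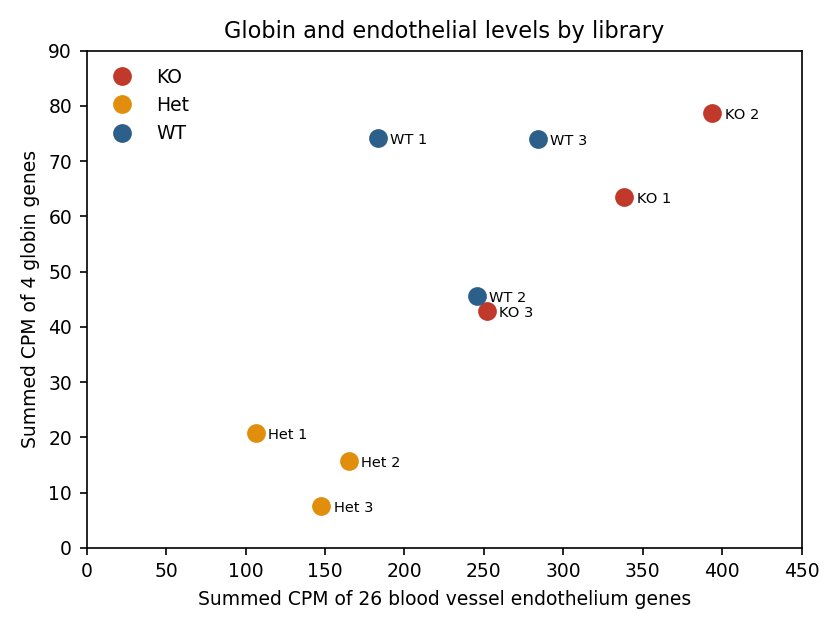
The plot sets the summed CPM of the 4 globin genes (vertical) against that of 26 blood vessel endothelium genes (horizontal), 1 point per library, coloured KO, Het or WT. The 3 Het libraries sit in the lower left corner, at 7.62 to 20.8 CPM of globin and 106 to 165 CPM of endothelium, and the other 6 lie between 42.9 and 78.7 CPM of globin.

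Among lists of other cells, several had negative medians in Het against WT as well. None had a gene called by edgeR, which called 0 of all 16836 genes tested. Medians were -0.87 for lymphatic endothelium (6 of 6 negative), -0.72 for macrophages (11 of 12 negative) and -0.57 for fibroblasts (10 of 10 negative). Lymphatic genes summed to 14.1, 33.6 and 19.0 CPM in Het libraries 1 to 3, against 18.1 to 42.3 CPM in WT libraries. Fibroblast genes summed to 397, 688 and 590 CPM in Het libraries, against 528 to 1073 CPM in WT libraries. Het and WT libraries thus overlapped in both lists. Macrophage genes summed to 84.9 to 118 CPM in Het libraries and 135 to 186 CPM in WT libraries. C1qa, a complement gene of macrophages, had -0.95 (SE 0.29) and the collagen gene Col3a1 -0.54 (SE 0.31). Of lymphatic genes, the receptor gene Lyve1 had -2.82 (SE 0.57), Tbx1 -0.77 (SE 0.91) and Pdpn -0.01 (SE 0.40). Smooth muscle (0.14) and pericytes (0.60), the cells that wrap vessels, had positive medians, but their Het libraries were far apart. Smooth muscle genes summed to 1373, 8746 and 8439 CPM in Het libraries 1 to 3, against 3631 to 7546 CPM in WT libraries. Pericyte genes summed to 32.3, 126 and 134 CPM in Het libraries 1 to 3, against 42.8 to 68.3 CPM in WT libraries. These medians therefore do not show how the Het libraries differ from WT as a group. Mcpt4, a mast cell protease, had 0 reads in each Het library, against 2.25 to 5.16 CPM in KO and 2.85 to 4.53 CPM in WT. The mast cell list was split, with 4 of 6 genes negative, and Kit, a receptor of mast cells and other cells, had 0.84 (SE 1.04) and Hdc, which makes histamine, 0.02 (SE 0.86) in Het against WT. Basal epithelium had a median of -0.39, with Krt15 at -0.59 (SE 0.35), Krt5 at 0.33 (SE 0.43) and Dst at -0.22 (SE 0.20). Luminal epithelium had a median of 0.16, with Pbsn at -1.49 (SE 0.42), Sbp at 2.21 (SE 3.18) and Spink1 at 2.12 (SE 2.67). Seminal vesicle genes had -2.48 (6 of 10 negative, with the abundant Svs2 at 0.70, SE 1.22, and Svs5 at 0.45, SE 1.14), with a summed level of 6595 to 359207 CPM among Het libraries, skeletal muscle genes -2.80, and mast cell genes -3.16 with the genes absent from Het at their bound. The part of these differences in tissue makeup in the globin result was not tested.

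**Figure D5:**
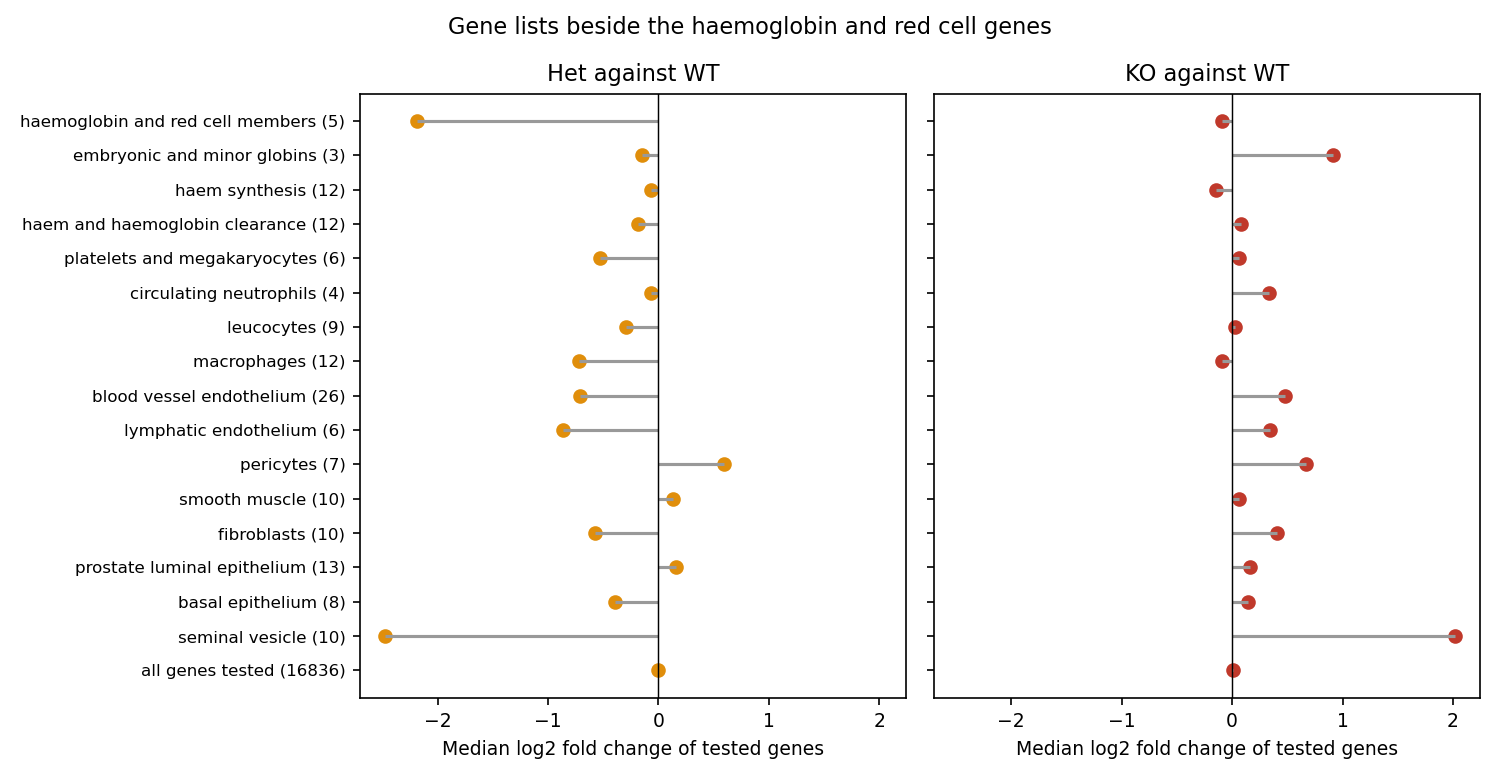
Each row is a gene list with the number of its tested genes in parentheses, and the point is the median edgeR log2 fold change in Het against WT (left) or KO against WT (right). Lists with a gene at 0 reads in a whole genotype are left out, and the bottom row gives all 16836 genes tested, at -0.00 and 0.01.

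The genes most like the 5 were found by the Pearson r of their log2 CPM with the mean of the 5 over the 9 libraries. The leading 8 were Gm33195 (0.983), Tec (0.976), Gm8995 (0.971), Tm6sf1 (0.971), Cd209g (0.969), Cd37 (0.968), Gm16574 (0.967) and Ms4a1 (0.964). Tec, a kinase of blood cells, had 6.87, 9.73 and 6.69 CPM in KO libraries, 4.59, 2.44 and 1.60 in Het libraries, and 8.58, 8.12 and 10.3 in WT libraries. The other 7 were rarer, at most 3.51 CPM in any library, and each had 0 reads in at least 1 Het library. Cd37, a tetraspanin of leucocytes, had 3.51, 1.76 and 1.41 CPM in KO libraries, 0.108, 0 and 0 in Het libraries, and 2.30, 1.55 and 1.87 in WT libraries. The median r was 0.55 over the 26 blood vessel genes, 0.65 over the 12 macrophage genes, -0.12 over the 10 smooth muscle genes and 0.06 over all other genes tested. It was also 0.54 over 6 mast cell genes, 0.49 over 10 fibroblast genes and 0.45 over 14 skeletal muscle genes. Lower values were -0.09 over 16 red cell membrane and erythroid genes and -0.10 over 12 haem synthesis genes. Platelet genes had 0.13 (6 genes) and neutrophil genes 0.16 (4 genes).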

How the data were processed

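Mouse prostate RNA was profiled in 9 libraries, 3 per Srd5a2 genotype. The authors deposited read counts per gene and FPKM values for the same libraries. The build, GRCm38 (mm10), is named per the submitters' processing notes. Not given in the sources used here were the aligner, the counter, strandedness and how multiply matching reads were treated. The counts were tested as deposited with edgeR 4.0.16 (R 4.3.3, limma 3.58.1): filterByExpr, TMM scaling, and robust quasi-likelihood tests of 3 contrasts over all 9 libraries, with Benjamini-Hochberg adjustment over 16836 genes at 0.05. For CPM the library sizes were TMM-scaled. The fit was also run on simulated counts with the same spread for every gene, which does not show what it can detect in these libraries. The deposited FPKM served for levels between genes. DESeq2 1.42.0, other scalings and filters, and fits without single libraries were alternatives. The members and lists were chosen with earlier results of these data known. Named genes are the 5 members, the 8 genes most like the members by r, and Sbp, Svs2 and Srd5a2. From each other list they were drawn from the 3 tested genes with the highest mean CPM. For blood vessel endothelium and the red cell membrane list the number was 6. Not all of those are printed, so the ones shown are not an unselected set. Others in the text were chosen after their values were seen. Promoters come from RefSeq (GRCm38.p6), with 5 of 5 symbols matched. Replicate numbers follow the order of deposit and pair no samples. P-values measure only the spread between these libraries.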

Additional observations from a re-analysis of the deposited data

How the results depend on the processing

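The 4 globin genes kept the sign of their fold change in Het against WT and in KO against Het under the alternatives tried. Counts of called genes did not hold. In Het against WT DESeq2 called 205 genes, the fit without the 3 libraries low in Sbp called 1, and leaving out single libraries gave 0 to 258, with 258 without Het library 1. In KO against Het the counts were 169 with DESeq2, 2 with no filter, 1 without the libraries low in Sbp, and 0 to 18 without single libraries, with 18 without Het library 1. In KO against WT they were 14 with DESeq2, 1 with only those genotypes fitted, and 0 to 1 without single libraries. The cause was not tested. The median of the 5 genes ran from -2.43 to -1.76 in Het against WT, 1.77 to 2.28 in KO against Het and -0.40 to 0.01 in KO against WT without single libraries, and was 0.39 in KO against WT without the 3 libraries low in Sbp. The endothelial median ran from -1.02 to -0.35 in Het against WT, with -0.35 without WT library 3. Hba-a2 in Het against WT was -6.32 without Het library 1 and -4.72 with limma voom, Hbb-bt was -5.18 without Het library 3 and -1.93 on the log2(FPKM + 1) scale, and Alas2 was 0.36 without the libraries low in Sbp. In FPKM the alpha to beta ratio was 1.25 in KO, the Hba-a2 share 16.5% in KO and 21.6% in WT, and Alas2 per 100 globin 2.62 in KO, 7.81 in Het and 2.48 in WT, since FPKM divides by length. No paired analysis was possible because the labels give no replicate numbers shared between genotypes. Low counts limit Hba-a2 and Hbb-bt in Het libraries.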
